A study of Rattus norvegicus with 8 samples.

Results

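The Notch genes described here were 4 receptors (Notch1, Notch2, Notch3 and Notch4), 4 ligands (Jag1, Jag2, Dll1 and Dll4) and 2 targets (Hes1 and Hey1). They were found by gene name among the spots that are not controls, and 10 of the 26334 gene names on the array belonged to them, with 12 of 30367 probes and 21 of 42877 spots. Expression was profiled in total RNA of 8 single retinas from female Lister Hooded rats, 8 weeks old at surgery. The retinas were taken 2 weeks after surgery. The 4 ONC retinas had the optic nerve crushed 3 mm behind the disc, over 10 s, and the 4 CTR retinas had a sham operation. Each of 4 two-color Agilent arrays carried 2 retinas.

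The deposited labels assign Cy5 to the 4 CTR retinas and Cy3 to the 4 ONC retinas, which means that a change of condition cannot be told apart from a change of dye. A different arrangement is stated in the methods of the study, where an array holds a single group in both dyes. Markers of retinal ganglion cells (RGCs), the cells that crush depletes, also went against the labels. Their median was high in CTR2 and in 3 of the ONC channels, and low in ONC4 and in the remaining CTR channels, although not every marker followed it. ONC and CTR therefore name channels by their label in what is reported here, and each direction is one between labels.

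Notch receptors are cell surface proteins that are activated by Jagged and Delta-like ligands on a neighboring cell. Binding lets proteases cut the receptor, and the released intracellular domain enters the nucleus, where it joins the DNA-binding protein RBPJ and switches on targets such as the Hes and Hey repressors. In the retina the pathway is known for holding progenitors undifferentiated and for its part in the formation of Müller glia, while in vessels Dll4 and Notch4 act in endothelial cells and Notch3 in mural cells.

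Signal decided which of these genes could be used. A spot was kept only when its foreground was at least 2 times its local background, with no outlier flag, in all 8 channels. Of the 10 genes, 7 had a probe that passed. Notch2, Dll1 and Dll4 were too dim to use, as was the other probe of Notch1. The local background was higher in Cy5, with a median of 56.0 in CTR1 against 29.0 in ONC1, so the filter acted more on the CTR channels, where it was reached by 71.9% to 75.0% of spots, than on the ONC channels, with 98.2% to 99.9%. Brightness was therefore also set against the 153 negative control spots of each array, whose median foreground was 61.6 to 64.1 in Cy5 and 64.0 to 74.1 in Cy3.

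Notch2, a receptor closely related to Notch1, had a foreground of 1.48 to 1.79 times its background in the CTR channels. Against the negative controls it was 1.30 to 1.54 times as bright in CTR and 1.16 to 1.34 times in ONC. The software called it well above background in CTR1 and CTR4 only. Dll1, a ligand of neurogenesis, reached 1.81 to 2.11 times its background in the CTR channels and failed in CTR3 and CTR4, while the software called it well above background in 6 of 8 channels. Against the negative controls its foreground was 1.73 to 1.99 times as bright in CTR and 1.24 to 1.71 times in ONC. Dll4, the ligand of endothelial tip cells, had 2 probes that failed in different ways. The probe A_43_P21195 came close to the threshold, at 1.93 to 2.31 times its background in the CTR channels, and was well above background in 7 of 8, whereas A_64_P048301 lay at 1.22 to 1.31 times and was well above background in 0 channels. All 4 failed probes of Notch2, Dll1 and Dll4 therefore stayed below 2 times the negative controls in every channel, although 3 of them lay above the 95th percentile of these controls in all 8.

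The probes of the dim members that lay close to the threshold, and the dim probe of Notch1, are shown because they define which stretch of each transcript was read. They are written 5′ to 3′, with positions from the array design (rn4). Their GC content was 55.0% for Notch1, 43.3% for Dll1 and 53.3% for Dll4.
Notch1 probe A_44_P233932, chr3:4634122-4634181, minus strand: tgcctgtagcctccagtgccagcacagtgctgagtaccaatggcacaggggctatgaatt
Dll1 probe A_64_P130025, chr1:54240861-54240920, minus strand: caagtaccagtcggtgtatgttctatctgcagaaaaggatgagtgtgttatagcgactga
Dll4 probe A_43_P21195, chr3:105850302-105850361, plus strand: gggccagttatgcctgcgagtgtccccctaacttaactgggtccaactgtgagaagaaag

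**Figure D1:**
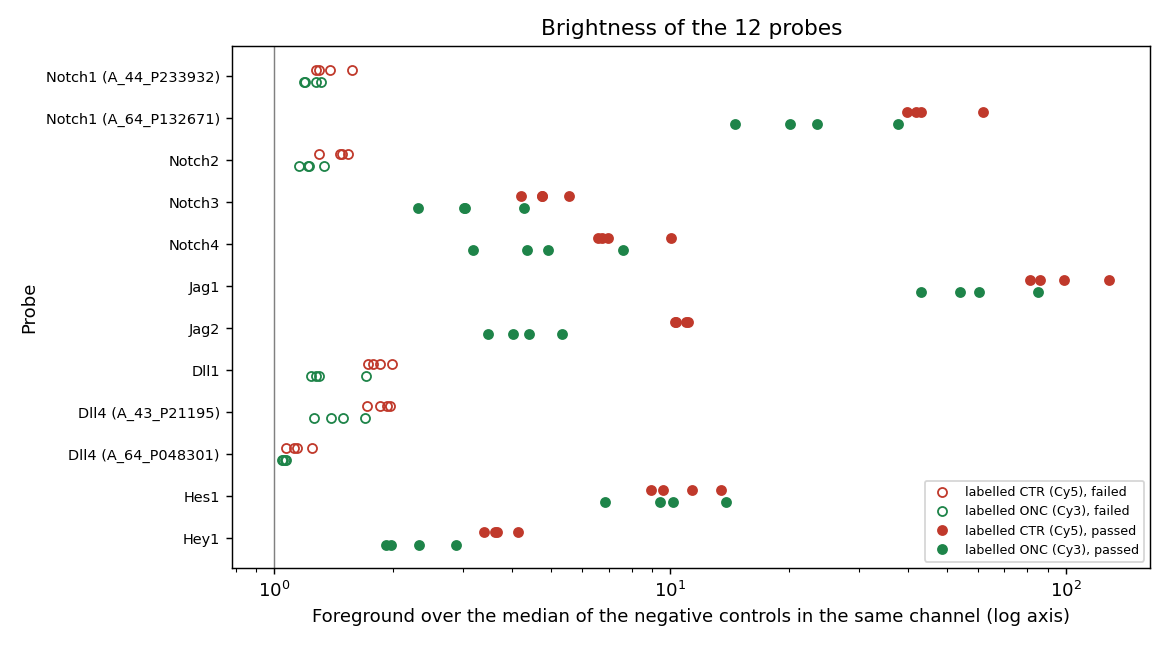
Foreground of each of the 12 probes over the median of the negative controls in the same channel, on a log axis, with 1 point per channel; red points are channels labeled CTR (Cy5), green points channels labeled ONC (Cy3), and open points mark probes that failed the spot filter. The failed probes lie between 1.05 and 1.99, and Hey1 is the dimmest of those that passed, from 1.91 in ONC4.

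Among the receptors, Notch1 was read by the probe A_64_P132671 alone, whose foreground was 14.6 to 61.7 times the negative controls. This probe lies 2293 bases from the dim one on the same strand, further along the transcript. On the log2 scale, with the median of each channel at 0, Notch1 was at 0.95, 1.09, 1.06 and 1.02 in CTR1 to CTR4. It was at 0.75, 0.91, 0.82 and 0.83 in ONC1 to ONC4. The groups did not overlap, but the gap between the lowest CTR and the highest ONC channel was 0.04. The log2 difference of ONC minus CTR was -0.20 (95% interval -0.38 to -0.03, standard error 0.08, adjusted p = 0.204 by limma). The study gives Notch1 as higher after crush. Its methods arrange the retinas differently from the labels, and the RGC markers go against the labels. The groups of the study and the labeled groups may therefore hold different channels, and their directions cannot be compared. Notch1 was lower in ONC on all 4 arrays, from -0.24 to -0.19. The value was as small as -0.06 when dim spots were kept and the background was corrected by normexp, a step in which the dim probe was averaged in.

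Notch3, the receptor of vascular mural cells, ranged from -2.50 to -2.22 in CTR and from -2.46 to -2.28 in ONC. The difference was -0.02 (95% interval -0.23 to 0.19, adjusted p = 0.944), ONC was higher on 2 of 4 arrays, and the sign turned without loess, where it was 0.24. Notch4, an endothelial receptor, was printed as 10 spots of a single probe, of which 6 were used. The rest carried an outlier flag and were not too dim, since all 10 reached at least 5.09 times their local background. The Notch4 level ran from -1.75 to -1.54 in CTR and from -1.69 to -1.54 in ONC. The difference was 0.02 (95% interval -0.16 to 0.20, adjusted p = 0.926), and it was 0.15 without loess and 0.13 with the processed signals. The standard deviation among its repeated spots was 0.05 to 0.16 within a channel.

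**Figure D2:**
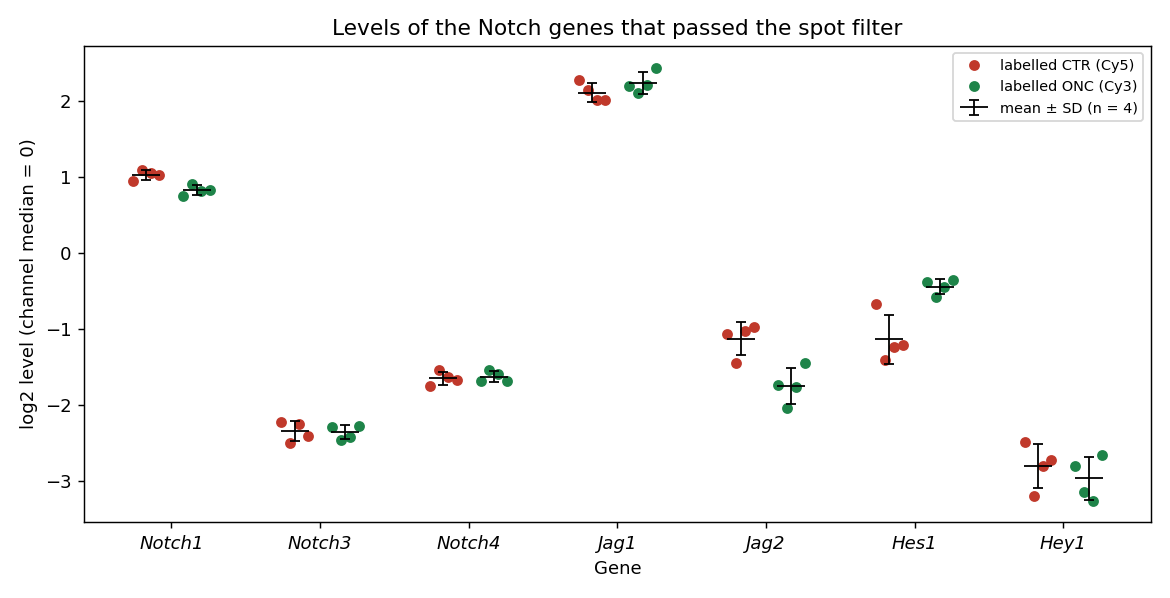
Log2 level of the 7 Notch genes that passed the filter, with the median of each channel at 0; each point is 1 retina, red for channels labeled CTR and green for channels labeled ONC, and bars give the mean ± SD (n = 4). Levels are not comparable between genes, and Notch1, Jag2 and Hes1 are the genes whose groups do not overlap.

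Among the ligands, Jag2 showed the larger difference between labels. Its log2 level was -1.06, -1.44, -1.02 and -0.98 in CTR1 to CTR4. In ONC1 to ONC4 it was -1.74, -2.04, -1.76 and -1.45. Every ONC channel was below every CTR channel, although CTR2 and ONC4 came within 0.01 of each other. The log2 difference was -0.62 (95% interval -0.96 to -0.29, standard error 0.15), or 1.54-fold lower in ONC, with an adjusted p of 0.0831. With the array as a block the adjusted p was 0.0285 for the same difference, and over all the alternatives it lay between 0.0285 and 0.407. Jag2 was lower in ONC on 4 of 4 arrays, by log2 differences from -0.73 to -0.48.

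Jag1, the other Jagged ligand, was bright, at 43.0 to 128.5 times the negative controls. Its log2 level was 2.28, 2.15, 2.01 and 2.01 in CTR, and the ONC channels were at 2.20, 2.11, 2.21 and 2.44 in the same order. The groups overlapped, and ONC was higher on 2 of 4 arrays, with the highest value of all in ONC4. The difference of 0.13 (95% interval -0.10 to 0.36, adjusted p = 0.560) was within the spread between retinas, and it was 0.06 without ONC4.

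Hes1, a repressor induced by Notch, had the largest log2 difference of the 7 genes when no channel was left out. Jag2 had the larger one without CTR2 (-0.73 against 0.60 for Hes1) and without ONC4 (-0.72 against 0.66). The Hes1 probe A_64_P054708 has no position in the array design. The log2 level of Hes1 was -0.67, -1.41, -1.24 and -1.22 in CTR1 to CTR4. The ONC channels were at -0.38, -0.58, -0.45 and -0.35, all above the CTR channels. CTR1 lay nearer to the ONC channels than the other CTR channels did, and the gap between groups was 0.09. The log2 difference was 0.69 (95% interval 0.35 to 1.04, standard error 0.15), or 1.62-fold higher in ONC, with an adjusted p of 0.0720. With the array as a block the adjusted p was 0.0330, in a range from 0.0161 to 0.384 over all the alternatives. Hes1 was higher in ONC on 4 of 4 arrays, with differences from 0.29 on the array of CTR1 to 0.86.

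The 250 bases before the Hes1 start are shown because Hes1 is a direct target and its RBPJ motifs are well known. The motif TGGGAA was searched on both strands (TTCCCA on the other) in the RefSeq promoters of GRCr8, and 22.1% of 33469 promoters of this length held it. Of the 8 Notch genes with an entry, 3 held a match, which were Notch4, Dll1 and Hes1. In Hes1 the matches, in capitals, began 123 and 109 bases before the start. A match describes the letters and not binding.
Hes1, chr11:84213046-84213295, minus strand: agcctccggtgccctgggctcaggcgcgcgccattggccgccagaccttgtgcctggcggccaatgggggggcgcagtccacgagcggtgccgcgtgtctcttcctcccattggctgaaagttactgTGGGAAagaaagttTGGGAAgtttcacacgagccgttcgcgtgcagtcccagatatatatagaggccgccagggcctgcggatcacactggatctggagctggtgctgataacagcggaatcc

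Hey1, the other target, was the dimmest gene that passed, at 1.91 to 2.89 times the negative controls in ONC and 3.38 to 4.13 times in CTR. Its log2 level was -2.49, -3.20, -2.80 and -2.73 in CTR, and the ONC channels were at -2.80, -3.15, -3.26 and -2.66 in the same order. The groups overlapped. The difference of -0.16 (95% interval -0.57 to 0.24, adjusted p = 0.683) turned to 0.23 without loess and to 0.04 with the processed signals of the software. With each channel left out it stayed below 0, from -0.30 to -0.06.

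Across the 7 genes, limma called 0 at an adjusted p under 0.05, where 0.497% of 16307 genes were called. At an unadjusted p under 0.05 there were 3 of 7 (Notch1, Jag2 and Hes1), against 18.6% of all genes, and the methods' t-test called 0 genes of any kind after adjustment. With the array as a block, 2 of 7 were called (Jag2 lower and Hes1 higher), against 7.69% of all genes. The groups did not overlap for 3 of 7, against 12.7% of all genes, and 3 of 7 had the same direction on all 4 arrays, against 39.4%. Without loess the adjusted p was 0.0378 for Jag2 and 0.0161 for Hes1, in a setting that called 19.6% of all genes, and with Aquantile normalization, which called 2.5%, it was 0.0413 and 0.0446. The median log2 difference of the 7 genes was -0.02, beside -0.01 over all genes. Labels and methods name the same dye for 4 channels (CTR2, CTR4, ONC1 and ONC3), and there the difference was 0.90 for Hes1, -0.54 for Jag2 and -0.27 for Notch1. The adjusted p by limma was 0.384, 0.407 and 0.440 in this order, and 0 of 16307 genes were called. These CTR channels are still Cy5 and these ONC channels Cy3, so dye and condition cannot be told apart here either. The median of the RGC markers was high in CTR2 as in ONC1 and ONC3.

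**Figure D3:**
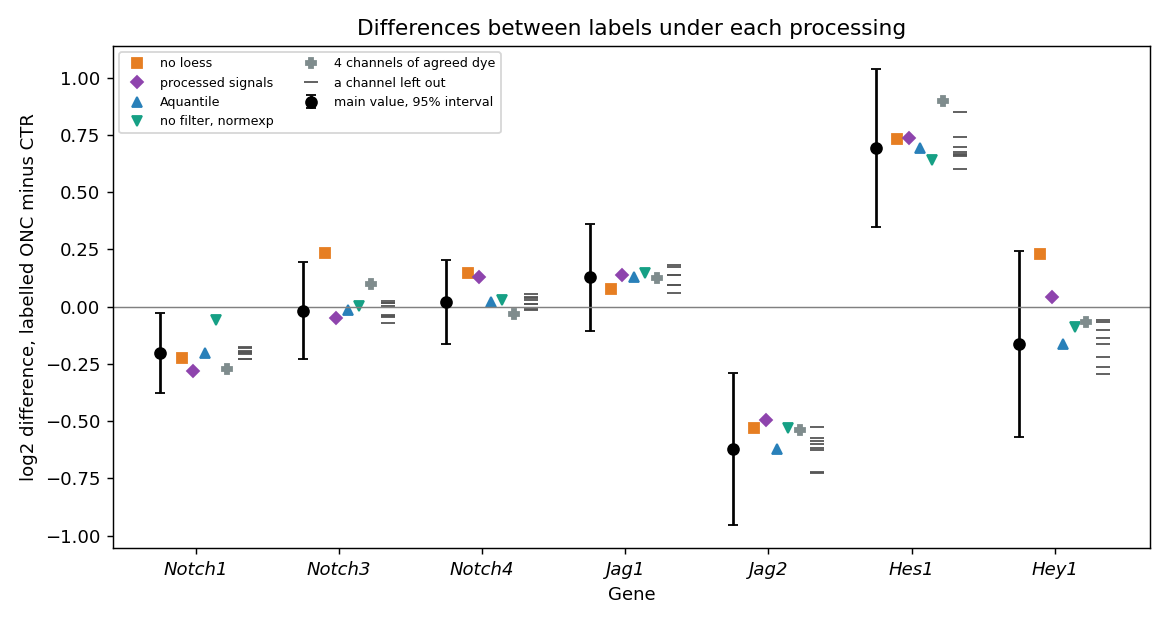
Log2 difference of ONC minus CTR by label for the 7 genes; black points with 95% intervals are the main values, colored symbols the values under other processing, and dashes the values with 1 channel left out. Hes1 stays between 0.60 and 0.90 and Jag2 between -0.73 and -0.50, while Notch3, Notch4 and Hey1 lie on either side of 0.

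The wider pathway was described from 85 listed genes, of which 65 passed the filter. Of these, 32 were higher and 33 lower in ONC, with a median log2 difference of -0.00973. Of the 65, 1 gene was called, Dtx3, where 0.497% of all 16307 genes were called. With the array as a block 6 were called, or 9.23% of the list beside 7.69% of all genes. Dtx3, a Deltex family ubiquitin ligase, was at 1.46 ± 0.04 (SD, n = 4) in CTR and 0.86 ± 0.13 (SD, n = 4) in ONC. It fell by 0.60 on the log2 scale (adjusted p = 0.0438), was lower on 4 of 4 arrays, and had the groups 0.38 apart. The call was lost without each channel in turn, where the adjusted p was 0.0549 to 0.178 and the difference -0.66 to -0.56. It was also lost with the processed signals (-0.43, adjusted p = 0.0852), with dim spots kept (-0.56, 0.216) and in the 4 channels of agreed dye (-0.55, 0.384), and was kept without loess (0.00839), with Aquantile (0.0251), with spots well above background (0.0374), with the brightest probe (0.0397) and with the block (0.0290).

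By role, the other ligands held 5 higher and 3 lower genes of 8. Dlk2, a Delta-like protein without the receptor-activating domain, was the highest at 0.52 (adjusted p = 0.0883, and 0.0290 with the array as a block). Mfap2, a microfibril protein that binds Jagged, was the lowest at -0.20 (adjusted p = 0.371). Of 12 genes for glycosylation and cleavage, 4 were higher and 8 lower. Furin, the protease that cuts the receptor on its way to the surface, was the highest at 0.53 (adjusted p = 0.0787, and 0.0327 with the block). Aph1b, a γ-secretase subunit, was the lowest at -0.20 (adjusted p = 0.325).

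Trafficking and turnover held 5 higher and 8 lower genes of 13. Besides Dtx3, the ubiquitin ligase Cbl was at -0.44 (adjusted p = 0.101, and 0.0450 with the block), and the adaptor subunit Ap2a1 was the highest at 0.44 (adjusted p = 0.405), with 0.24 without CTR3 and 0.66 with the processed signals. In the nuclear complex, 9 genes were higher and 7 lower of 16. The acetyltransferase Kat2a was the highest at 0.73 (adjusted p = 0.0575, and 0.0304 with the block), and Dvl1, of the Wnt pathway, was the lowest at -0.27 (adjusted p = 0.143).

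Other targets were split, with 9 higher and 7 lower of 16. Hes5, a relative of Hes1, was the highest at 0.33 (adjusted p = 0.419), with -2.70 in CTR1 and -3.77 to -3.27 in the other CTR channels. Its ONC channels lay together, from -3.02 to -2.94. The size of the Hes5 difference was not settled, being 0.82 without loess, where it was called (adjusted p = 0.0239), 0.54 without CTR1 and 0.18 without CTR2. The cyclin Ccnd1 was at -0.66 (adjusted p = 0.158, and 0.0435 with the block). Gfap, a filament of reactive glia, was the lowest at -1.15 (adjusted p = 0.296), with a standard error of 0.54 and values from -1.84 to 0.17 in CTR and from -3.26 to -1.57 in ONC. It was -0.75 without ONC2 and -0.80 without CTR4.

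**Figure D4:**
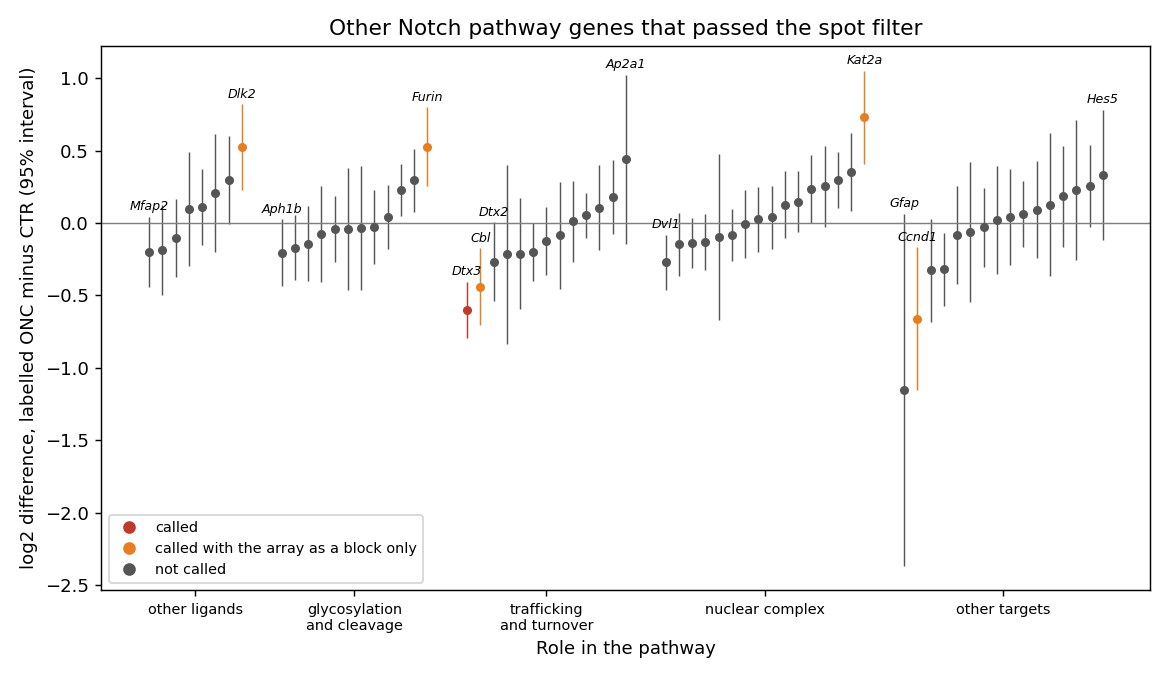
Log2 difference of ONC minus CTR by label, with 95% intervals, for the 65 other Notch pathway genes that passed the filter, ordered within each role. Dtx3 is the called gene (red). Dlk2, Furin, Cbl, Kat2a and Ccnd1 were called with the array as a block but not in the main values shown (orange).

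The 5 Notch genes that the study chose on these samples all passed the filter, and their count is not independent evidence of a direction. By label, 1 was higher (Smad1, a BMP transducer, at 0.11, adjusted p = 0.707) and 4 were lower. Besides Notch1, Dtx2 was at -0.27 (adjusted p = 0.276), the cytokine Cntf at -0.30 (adjusted p = 0.364) and the LIM protein Fhl1 at -0.04 (adjusted p = 0.853), which became -0.26 when only the brightest of its probes was used (adjusted p = 0.184). None of the 5 was called by limma without the block, where 0.497% of all genes were, or with it, where 7.69% were. An unadjusted p under 0.05 by limma was found for 1 of 5 (Notch1), against 18.6% of all genes.

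Markers of the cell types of the retina were set beside these values, with the 8-channel mean of each gene taken off. In bulk tissue, fewer cells of a type and less RNA per cell cannot be told apart. The median of 11 of 15 RGC markers was -1.44, 1.15, -1.02 and -0.95 in CTR, in order of replicate, and 1.15, 1.15, 1.36 and -1.17 in ONC. Of these, 8 were higher in each of CTR2, ONC1, ONC2 and ONC3 than in every other channel. The other 3, Stmn2, Gap43 and Tubb3, were not. Tubb3 followed the labels instead, with a log2 level of 1.02 to 1.80 in CTR and 2.24 to 2.92 in ONC (adjusted p = 0.0575 by limma). The summed signal of the list, in units of the channel median, was 15.4, 42.4, 17.7 and 23.1 in CTR and 49.4, 48.7, 50.03 and 18.5 in ONC. Such a sum is weighted toward the probes that shine most, and signals of different probes do not rank genes by abundance. The brightest marker here was Stmn2. Pou4f3, Isl2 and Nrn1 did not pass the filter, and Pou4f1 was not matched by name. Slc17a6, the glutamate transporter of RGCs, had the widest range, 4.15, and Gap43 the narrowest, 0.66. Jag2 was lowest within CTR in CTR2 and highest within ONC in ONC4, the channels in which the RGC markers depart from the rest of their label, and in the opposite sense. Hes1 was highest within CTR in CTR1, and its ONC4 value lay with the other ONC channels. The part of RGCs in either difference was not tested.

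Of 12 microglia markers, 11 were lower and 1 higher in ONC, with a median log2 difference of -0.32. Their summed signal was 14.1, 12.5, 25.2 and 25.1 in CTR and 10.9, 15.9, 12.6 and 15.4 in ONC. The brightest was C1qb, which also had the widest range, 2.40, and Trem2 had the narrowest, 0.79. Of 12 Müller glia markers, 10 were lower and 2 higher, with a median of -0.21, and 3 of 12 were called with the array as a block, where 7.69% of all genes were. The block also called 1 of 9 mural cell and 1 of 13 amacrine and bipolar markers, and none in the other lists. Dkk3 was the brightest, Glul had the widest range, 1.60, and Car2 the narrowest, 0.26. The part of either cell type in the lower Jag2 of the ONC channels was not tested.

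Vascular markers, which bear on Notch3, Notch4 and Dll4, were nearly balanced between labels, with 6 higher and 6 lower of 12 endothelial markers and 4 higher and 5 lower of 9 mural cell markers. Kdr was the brightest endothelial marker, Emcn had the widest range, 2.12, and Esam the narrowest, 0.22. Among mural markers, Des was the brightest and had the narrowest range, 0.20, and Kcnj8 was the widest, 1.13. Rod markers were 5 higher and 3 lower of 8, with Gnat1 the brightest, Rom1 the widest, 0.92, and Nrl the narrowest, 0.38. Amacrine and bipolar markers were 9 higher and 4 lower of 13, with Pcp2 the brightest, Calb2 the widest, 1.70, and Tfap2b the narrowest, 0.34. Lens and pigment epithelium markers were 7 higher and 3 lower of 10, with Ttr the brightest, Crygb the widest, 2.01, and Tyrp1 the narrowest, 0.83.

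**Figure D5:**
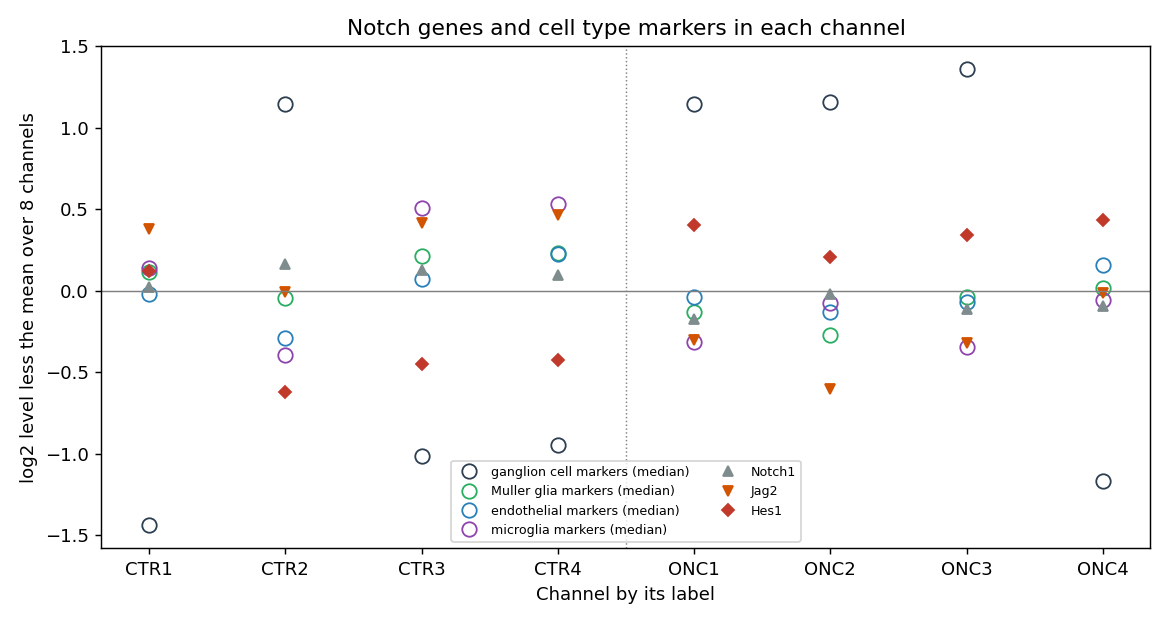
Log2 level less the mean over the 8 channels for Notch1, Jag2 and Hes1 (filled symbols) and the median of 4 marker lists (open circles), by channel label; the dotted line parts CTR from ONC. RGC markers stand high in CTR2, ONC1, ONC2 and ONC3, and Jag2 is lowest within CTR in CTR2 and highest within ONC in ONC4.

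Genes with a similar profile were sought by the root mean square difference of mean-centered log2 levels over the 8 channels, a value that grows with the spread of the gene itself. Nearest to Notch1 were Gtf2h5 (0.03), Vps9d1 (0.04) and the probe A_64_P120114 (0.04). Nearest to Jag2 were Tcn2 (0.03), LOC688591 (0.07) and Chmp6 (0.09), and nearest to Hes1 were Chd8 (0.11), Olfm2 (0.12) and AA946055 (0.12). Jag1 was nearest to Rad17, Nin and Mrps2, all at 0.05. Between Hes1 and Jag2 the value was 0.69, the largest among pairs of the 7 genes.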

How the data were processed

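Total RNA of 8 retinas was hybridized onto 4 arrays on a single slide, and the authors deposited, for each spot and channel, the intensity as mean foreground, median background and a processed signal, with flags. The file headers name Feature Extraction 12.0.3.1, and the submitters' processing notes name 11.1.19.1. Of 44254 spots per array, 1377 were controls, and 27371 spots (18599 probes, 16307 genes) passed the filter. After subtraction of the background, loess was applied within arrays and every channel was set to a median of 0, and log2 values were averaged over spots and probes. The test was the two-sided moderated test of limma (version 3.58.1, R 4.3.3, lmFit and eBayes), unpaired as in the methods, with Benjamini-Hochberg adjustment over all genes and calls under 0.05. Retinas on the same array deviated together (r = 0.149, 0.549, 0.401 and 0.487), and the labels name the shared array, so the array as a block is given where it changes a call. Calls with the block rest on the labels. Under the arrangement in the methods, an array holds a single group, and the difference within it would be one between dyes. The number of arrays limits precision.

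Members and lists were chosen with earlier results of these data known, and the comparison with negative controls after seeing the values. Besides the members, pathway genes are named when called with or without the block or highest or lowest in their list, as are the genes chosen by the study. Markers are named when brightest or of widest or narrowest range, and Tubb3 was added after seeing the values. Genes nearest in profile are named for Notch1, Jag1 and Hes1, and for Jag2, which was added after seeing the values. Of the genes listed, 3 are not reported here and were left out of their lists. Names come from the array's design, and 1 marker was matched by its RefSeq accession. Alternatives were no loess, processed signals, Aquantile, no filter with normexp (offset 50), spots well above background, the brightest probe, the block, each channel left out, the 4 channels of agreed dye and the methods' t-test. Python 3.11.15 with pandas 2.3.3, numpy 2.4.6, scipy 1.17.1 and matplotlib 3.10.9 was used for tables and figures.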

Additional observations from a re-analysis of the deposited data

Results flagged for a closer look

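Groups of 4 channels, 108 in all, were examined for the 7 Notch genes and 47 other named genes. Tubb3 and the genes nearest to Jag2 were not among them. Of these groups, 7 held a channel far from the other 3. Chance alone gives about 1 in 20, a rate that does not hold for genes named for a wide range or an extreme difference. In the ONC channels, Cntf was -0.011 in ONC4 against -0.46 to -0.44 in the others, and Furin was 1.66 in ONC2 against 1.84 in the others. Gfap was -3.26 in ONC2 against -1.69 to -1.57, and Ttr was 4.44 in ONC2 against 5.80 to 5.90. Emcn was -0.98 in ONC4 against -3.10 to -3.05. Slc17a6 stood apart in both labels: ONC4 was at -1.40, with the rest of ONC at 2.58 to 2.66, and CTR2 was at 2.55, with the rest of CTR at -1.49 to -0.81. None of the 7 Notch genes that passed the filter had such a channel.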

How the results depend on the processing

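The count of genes called moved from 81 to 3194 without loess (71.0% of them higher in ONC, against 46.9%), 21 with processed signals (57.1% higher), 408 with Aquantile, 123 with spots well above background and 124 with the brightest probe. It was 1254 with the array as a block, and 0 with no filter and normexp (1957 at an unadjusted p under 0.05), in the 4 channels of agreed dye (1961) and by the methods' t-test after adjustment (2682 before it). With each channel left out it was 0 to 38. The wider Notch list gave 14 calls of 65 without loess, where 19.6% of all genes were called, 6 with the array as a block, where 7.69% were, and 0 with processed signals, with no filter and in the 4 channels, and 0 with each channel left out.

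Jag2 passed the threshold without loess (-0.53), with Aquantile (-0.62) and with the array as a block (-0.62), as did Hes1 (0.73, 0.69 and 0.69). The block changed no other call among the 7 genes. With each channel left out, Jag2 was -0.73 to -0.52 and Hes1 0.60 to 0.85, with adjusted p of 0.0758 to 0.229 and 0.0823 to 0.208. Notch1 and Jag1 kept their direction and stayed uncalled under all 17 alternatives. Notch3 turned to 0.24 without loess, 0.00112 with no filter and 0.10 in the 4 channels, and ranged from -0.070 to 0.023 with a channel left out. Notch4 was 0.15 without loess and 0.13 with processed signals, turned to -0.033 in the 4 channels and ranged from -0.014 to 0.055 with a channel left out. Hey1 turned to 0.23 without loess and 0.040 with processed signals. The median of the Notch genes was 0.15 without loess. Fhl1 turned to 0.00562 without loess and was -0.26 with the brightest probe, and Mfap2 turned to 0.00266 without loess. Dvl1 (-0.33), Hes5 (0.82), Dlk2, Furin and Kat2a were also called without loess, and Hes5 ranged from 0.18 to 0.54 with a channel left out. So did Jag1 from 0.060 to 0.18, Hey1 from -0.30 to -0.058, Ap2a1 from 0.24 to 0.63, Gfap from -1.47 to -0.75, Cntf from -0.42 to -0.19, Dtx2 from -0.35 to -0.19, Ccnd1 from -0.80 to -0.50 and Smad1 from 0.025 to 0.19. Smad1 was 0.011 in the 4 channels, and Dtx2 was -0.14 with processed signals. The cause was not tested. Signal over background limits Notch2, Dll1 and Dll4, whose 95% intervals with no filter were -0.43 to 0.43, -0.39 to 0.36 and -0.46 to 0.47.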
